A study of Schizosaccharomyces pombe with 17 samples.

Results

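The subtelomeric genes of fission yeast, Schizosaccharomyces pombe, were taken here as the rows of the deposited expression table whose systematic names start with 1 of 10 cosmid prefixes: SPAC212, SPAC977, SPAC750, SPAC186, SPBC1348, SPBPB10D8, SPBPB21E7, SPBCPT2R1, SPBPB2B2 and SPCC569. A cosmid is a cloned stretch of genome, and its name is the first part of the name of each gene on it. This gave 113 genes of 7027 features, and 2 further rows of these cosmids were not used here. The rule uses names and no measured value, though it was set with earlier results of these data known. In the reference annotation 109 of the 113 were found, and their places matched the label. The 10 cosmids lie at both ends of chromosomes I and II and at the right end of chromosome III, and every matched gene was among the 36 genes nearest to its chromosome end.

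The study sequenced polyA-selected RNA of strains with mutations in rrp6 and dis3, which encode exonucleases of the nuclear RNA exosome. It holds 7 groups of 2 polyA libraries, and 3 further libraries with adapters ligated to RNA 3′ ends were not used here. Cells grew in liquid YES, a rich medium. Wild type (strain CHP1365), the strain labelled rrp6Δ (JLP1704) and rrp6-cat (JLP1708) were grown at 32 °C. The temperature-sensitive strains dis3-4 (JT449) and rrp6-cat dis3-4 (JLP1863) were each sampled at 23 °C and after 1 h at 30 °C. Each genotype is 1 strain, so genotype and strain cannot be told apart. Wild type was sampled at 32 °C alone, so temperature and genotype differ together whenever a dis3-4 strain is set against it.

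As background, the nuclear exosome is a complex that digests RNA from its 3′ end, with Dis3 and Rrp6 as its catalytic subunits. It acts on noncoding RNA, on processing intermediates and on certain mRNAs. In fission yeast the chromosome regions next to the telomeres are packaged into silent heterochromatin, which depends on histone H3 lysine methylation. The RNA interference machinery contributes to it. These regions hold repeated gene families, among them RecQ-type helicase genes, transporters, cell surface proteins and metabolic enzymes, and many of their genes are silent in rich medium.

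The measure was FPKM, fragments scaled by transcript length and by the size of the library. Summed over all features, a library held between 618712 and 842245 FPKM. No source used here gives read totals, but the smallest values showed that wild type replicate 2 had 0.24 times the depth of wild type replicate 1, the shallowest of the 14 libraries. In it 1 fragment on a transcript of 1 kb was worth 1.95 FPKM, and in wild type replicate 1 it was worth 0.476. Other libraries were nearly as shallow. On the same scale replicate 2 of the dis3 single mutant was at 0.26 at 30 °C and at 0.28 at 23 °C. Replicate 2 of the rrp6Δ label was at 0.3. Wild type replicate 1 was deeper than every other library except rrp6-cat replicate 1, which was at 1.1. The 2 wild type libraries also differed most from each other, and whether depth was the cause was not tested. The mean square of log2(FPKM + 1) between replicates of the tested subtelomeric genes was 1.41 in wild type and 0.274 to 0.676 in the other 6 groups. A level of a few FPKM therefore rests on a few fragments, and values against wild type are given with and without its libraries where this ended a call. The libraries labelled rrp6Δ held rrp6 RNA at 179 and 128 FPKM, where wild type held 95.4 and 43.2, so the deletion was not seen in this table and the group is called by its label throughout. An FPKM of 0 can also be a failed estimate, so such genes are described as listed at 0.

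Most subtelomeric genes had low values in this table. The median of their mean FPKM over the 14 libraries was 1.42, and it was 28.7 over all 7027 features. Of the 113 genes, 21 were listed at 0 in every library and 28, these included, stayed under 1 FPKM in every library. A listed 0 need not mean that a gene was silent, since clr3 and rik1, heterochromatin genes outside the set, were also listed at 0 in all 14 libraries. A mean of at least 1 FPKM was reached by 58 genes, 51.3% of the set, against 86.6% of all features. The 55 genes under that limit had no value above 4.74 FPKM in any library. Nearest to the limit were SPAC977.06 and SPAC212.02 below it, at 0.932 and 0.942 FPKM, and SPBPB21E7.08.1 and SPAC186.08c above it, at 1.20 and 1.42. A mean of 20 FPKM or more was reached by 17 genes. The heat map of the 58 tested rows shows these few standing above a dark field.

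**Figure D1:**
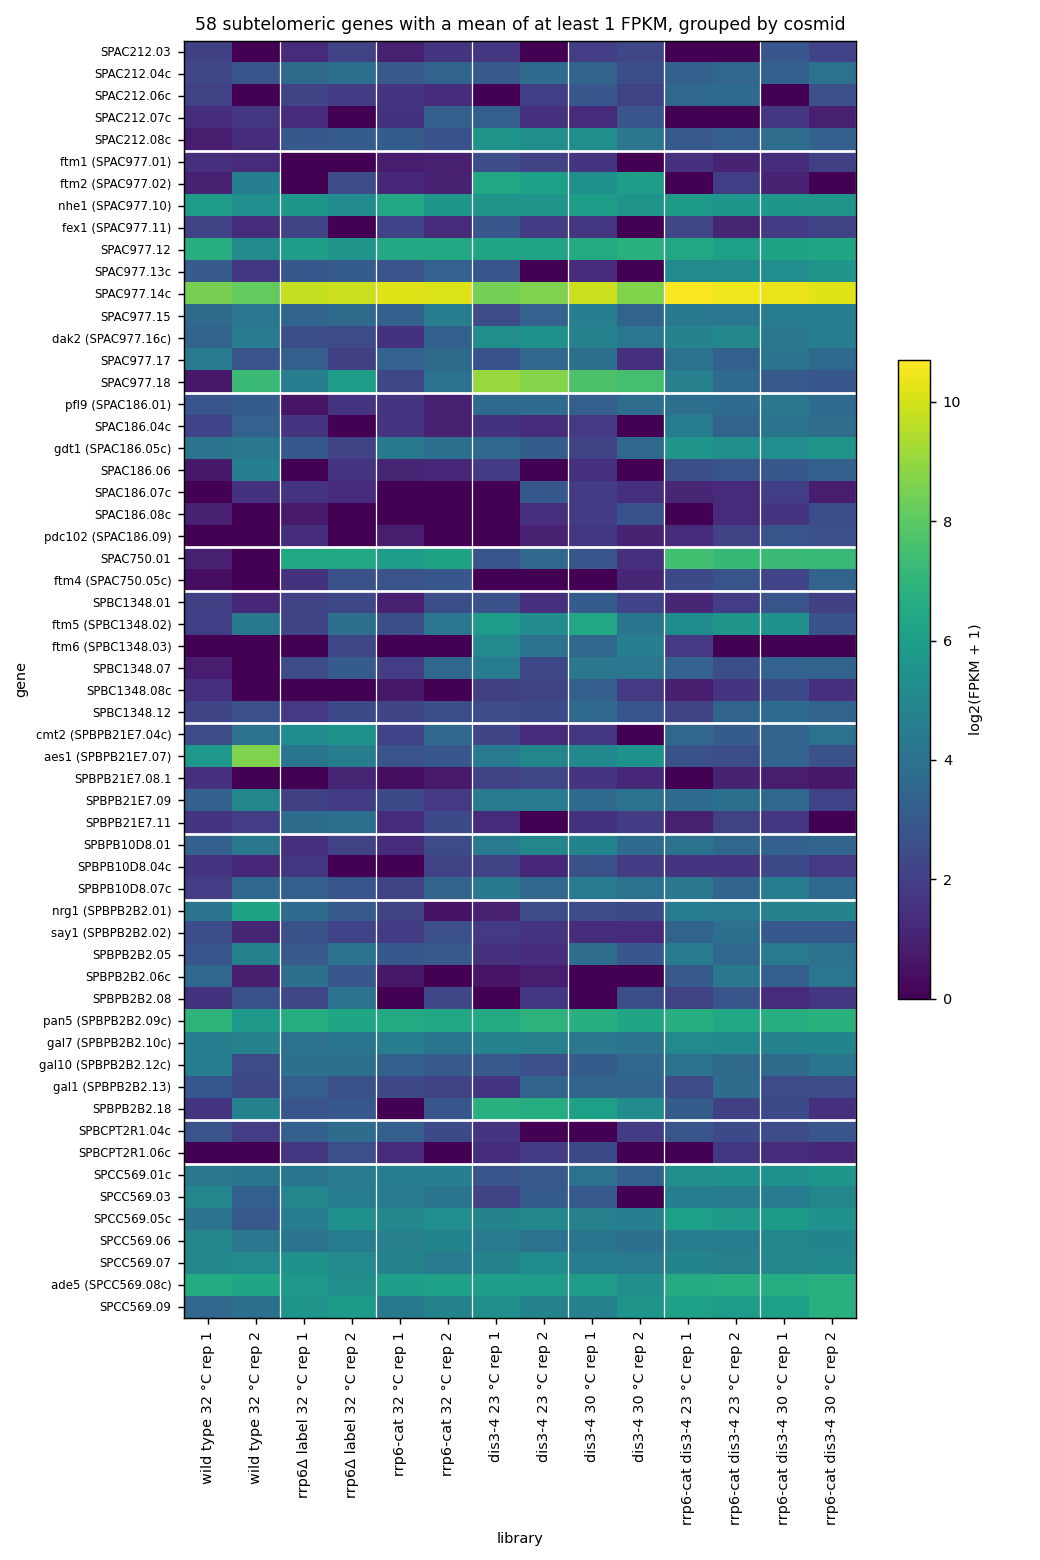
Level of the 58 tested subtelomeric genes (rows, grouped by cosmid, white lines between cosmids) in each of the 14 libraries (columns, in pairs by group), as log2(FPKM + 1). SPAC977.14c is the brightest row in 11 of the 14 libraries; SPAC977.18 is brighter in both of dis3-4 at 23 °C, at 531 and 419.6 FPKM, and aes1 in wild type replicate 2, at 389.9 FPKM.

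The level differed between cosmids. Genes of SPCC569, the 9 genes nearest to the right end of chromosome III, had a median mean level of 22.9 FPKM, and 7 of the 9 were tested. Genes of SPAC977, at places 13 to 30 from the left end of chromosome I, had a median of 10.2 FPKM, with 11 of 17 tested. SPBPB2B2, at places 10 to 26 from the right end of chromosome II, followed at 4.81 FPKM, with 10 of 17 tested. At the bottom was SPBCPT2R1, the outermost 9 genes of the right end of chromosome II, at 0.196 FPKM with 2 tested. The outermost genes of chromosome I were low as well: the median was 0.493 FPKM over the 12 of SPAC212 at the left end and 0.407 FPKM over the 8 of SPAC750 at the right end.

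Repeated sequence bears directly on these levels. Of the 113 genes, 58 had another gene with at least 95% identity over at least 200 bases of transcript, and they were 22 of the 58 tested genes and 36 of the 55 that were not. How reads from such copies were shared out is unstated in the sources used here. The 4 transporter genes SPBPB10D8.04c, SPBPB10D8.05c, SPBPB10D8.06c and SPBPB10D8.07c are identical over 1140 bases, yet their mean levels were 2.31, 0, 0 and 11.9 FPKM. Likewise ftm5 had a mean of 27.4 FPKM and SPBPB2B2.19c, identical to it over 1292 bases, was listed at 0. The level of a repeated gene is thus uncertain as to which copy it came from. A further limit is strand: 70 of the 113 genes overlap another annotated gene, the kit marks strand by dUTP, and whether the counting used strand is unstated in the sources used here.

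Of the helicase genes that mark the chromosome ends, tlh1 (SPAC212.11) and tlh2 (SPBCPT2R1.08c), RecQ-type helicases, neither was raised to 1 FPKM in any library. Their transcripts are 99.98% identical over 5662 bases. For tlh1, 11 of the 14 libraries were listed at 0 and the highest value was 0.255 FPKM, in rrp6-cat dis3-4 at 23 °C replicate 2. For tlh2 the values ran from 0 to 0.600 FPKM, with wild type at 0.397 and 0.324 FPKM and the libraries labelled rrp6Δ at 0.600 and 0 FPKM. Neither gene was tested, since both lie under the limit of 1 FPKM.

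Changes were tested with limma on log2(FPKM + 1) of all 6083 features with a mean of at least 1 FPKM, and a gene was called at a Benjamini-Hochberg adjusted p under 0.05. Between 6 and 11 of the 58 tested subtelomeric genes were called against wild type in each mutant group. In the libraries labelled rrp6Δ 11 were called, 5 higher and 6 lower, where 12.5% of all tested features were called, 9.81% higher and 2.7% lower. In rrp6-cat 7 were called, 5 higher and 2 lower, against a background of 5.64%, with 4.88% higher and 0.756% lower. In dis3-4 at 23 °C 6 were called, 4 higher and 2 lower, against 5.11%, with 4.39% higher and 0.723% lower. After 1 h at 30 °C 7 were called in dis3-4, 5 higher and 2 lower, against 8.58%, with 6.38% higher and 2.2% lower. The double mutant rrp6-cat dis3-4 had 10 called at 23 °C, 9 higher and 1 lower, against 11.8%, with 9.42% higher and 2.38% lower. At 30 °C it had 11 called, 10 higher and 1 lower, against 13.9%, with 11.7% higher and 2.22% lower.

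As shares of the 58 tested genes these counts were 19%, 12.1%, 10.3%, 12.1%, 17.2% and 19% in the same order. A gene near 0 in wild type entered the test through the mutant libraries that held it. These shares therefore describe the tested genes and say nothing of all 113. Called genes of this kind were SPAC750.01, ftm4, ftm6, SPBC1348.07 and pdc102, with wild type means of 0.453, 0.164, 0, 0.410 and 0 FPKM. For this reason the shares called higher than wild type cannot be weighed against those of all tested features. Between mutants, rrp6-cat dis3-4 at 30 °C against dis3-4 at 30 °C had 8 genes called, 6 higher and 2 lower, 13.8% of the tested genes. The background was 1.84%, with 1.51% higher and 0.329% lower. The 2 lower genes, ftm2 and ftm6, are 98.7% identical over 784 bases, so they are not independent. The same contrast at 23 °C, added after the values were seen, had 4 called, 3 higher and 1 lower, against 0.986%, with 0.723% higher and 0.263% lower. Over the 10 comparisons planned, 20 different genes were called at least once, 34.5% of the 58 tested, where 22.9% of all tested features were. Against wild type, 11 were higher in at least 1 mutant group, 19% against 17% of all tested features. In at least 1 group 8 were lower, 13.8% against 5.67%, and 1 gene, SPCC569.01c, was in both counts. Among the 8 lower genes the wild type libraries were far apart in some, as in aes1, at 50.8 and 390 FPKM. They were close in others, as in SPCC569.01c, at 18.4 and 17.0 FPKM.

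**Figure D2:**
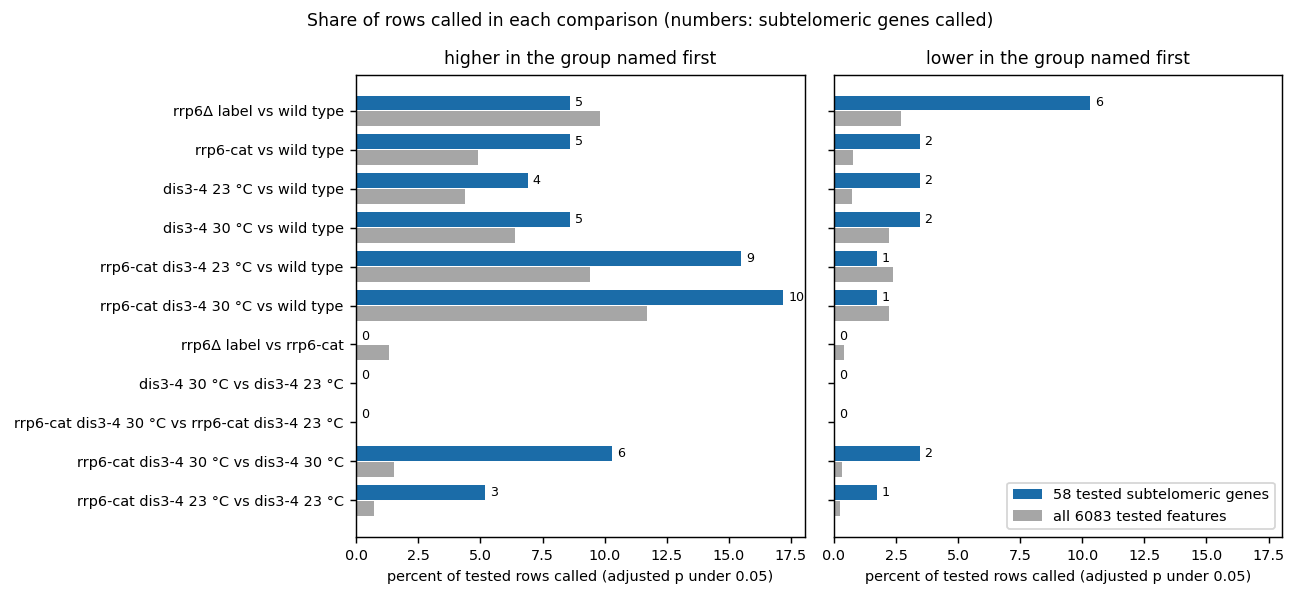
Percent of rows called at an adjusted p under 0.05 in each comparison, higher on the left and lower on the right, for the 58 tested subtelomeric genes (blue, with their number) and all 6083 tested features (grey). Genes near 0 in a group passed the limit of 1 FPKM through other groups, so the lengths of the bars are given as description. Where any subtelomeric gene was called, the blue bar is the longer one among genes called higher, except for the rrp6Δ label against wild type. Among genes called lower it is the longer one there, except in the double mutant against wild type at both temperatures. For the rrp6Δ label against rrp6-cat no subtelomeric gene was called, and the grey bar is the longer one on both sides.

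The tests rest on few libraries. All 7 groups shared 1 estimate of the spread, and with the compared groups alone 5 of the 64 called values kept their call, 3 of SPAC750.01 and 2 of SPAC977.14c. The labels do not say that replicates came from separate cultures, so a p-value measures the spread between these libraries. Of the 60 calls in the planned comparisons, 18 were kept with any 1 library left out, and these belong to 6 genes: SPAC750.01, SPAC977.14c, SPAC212.08c, aes1, SPCC569.09 and SPCC569.05c. Leaving out wild type replicate 2 ended 23 calls, and leaving out wild type replicate 1 ended 4.

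Enzymes were the largest role among the 113 genes, with 35 members, 21 of them tested and 7 called in at least 1 planned comparison. Of all tested features 22.9% were so called, the share against which each other role is counted too. The role took every gene whose annotation matched no other role, such as aes1, annotated as a phenazine biosynthesis family protein. Among the enzymes is a pair of aldo/keto reductases, a family that reduces carbonyl groups with NADPH. SPAC750.01, the eighth gene from the right end of chromosome I, was at 0.906 and 0 FPKM in wild type, at 82.6 and 81.9 in the libraries labelled rrp6Δ and at 59.7 and 71.3 in rrp6-cat. In dis3-4 it was at 5.89 and 11.1 FPKM at 23 °C and at 6.27 and 1.71 at 30 °C. In the double mutant it was at 177 and 144 FPKM at 23 °C and at 157 and 147 at 30 °C. Every mutant library lay above both wild type libraries, and every library with an altered rrp6 label lay above all 4 of dis3-4. The log2 change against wild type was 5.91 (SE 0.46, adjusted p = 7.35e-06 in limma) for the rrp6Δ label, 5.59 for rrp6-cat (adjusted p = 4.96e-05), 6.86 for the double mutant at 23 °C (adjusted p = 1.23e-05) and 6.79 at 30 °C (adjusted p = 1.39e-05). In dis3-4 it was 2.73 at 23 °C (adjusted p = 0.00477 in limma) and 1.69 at 30 °C (adjusted p = 0.0436). The double mutant exceeded dis3-4 by 4.13 at 23 °C (adjusted p = 0.00173 in limma) and by 5.10 at 30 °C (adjusted p = 0.000236).

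The calls for SPAC750.01 held with any 1 library left out, except in dis3-4. There the 23 °C call was lost without dis3-4 replicate 2, over left-out log2 changes of 2.26 to 3.19, and the 30 °C call without wild type replicate 2 or dis3-4 replicate 1, over 0.98 to 2.40. With no filter on low values the dis3-4 call at 30 °C was lost (adjusted p = 0.0881 in limma), and with a pseudocount of 0.1 FPKM so was the rise of the double mutant over dis3-4 at 23 °C (adjusted p = 0.0544).

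SPAC977.14c, a second aldo/keto reductase on the left end of the same chromosome, is 92.7% identical to SPAC750.01 over 1079 bases and was the subtelomeric gene with the highest mean level, 875 FPKM. Wild type held 358 and 276 FPKM, the libraries labelled rrp6Δ 875 and 916, and rrp6-cat 1141 and 1116. The dis3-4 libraries were at 351 and 396 FPKM at 23 °C and at 923 and 402 at 30 °C. The double mutant held 1572 and 1430.1 FPKM at 23 °C and 1321 and 1172 at 30 °C. As with its relative, the libraries with an altered rrp6 label lay above wild type with no overlap, while dis3-4 at 23 °C overlapped wild type. The log2 change was 1.51 for the rrp6Δ label (SE 0.31, adjusted p = 0.0084 in limma), 1.84 for rrp6-cat (adjusted p = 0.00488), 2.25 for the double mutant at 23 °C (adjusted p = 0.000869) and 1.98 at 30 °C (adjusted p = 0.00184). The double mutant also exceeded dis3-4 at 23 °C, by 2.00 (adjusted p = 0.0115 in limma), a call lost with any 1 of its 4 libraries left out, over 1.92 to 2.09. Without wild type replicate 2 or replicate 2 of the rrp6Δ label, the call for that label was lost as well, over 1.32 to 1.70. SPAC750.01 and SPAC977.14c fall short of the limit set for near copies, but reads shared between them cannot be told apart here. Each also overlaps an annotated noncoding RNA on the opposite strand.

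**Figure D3:**
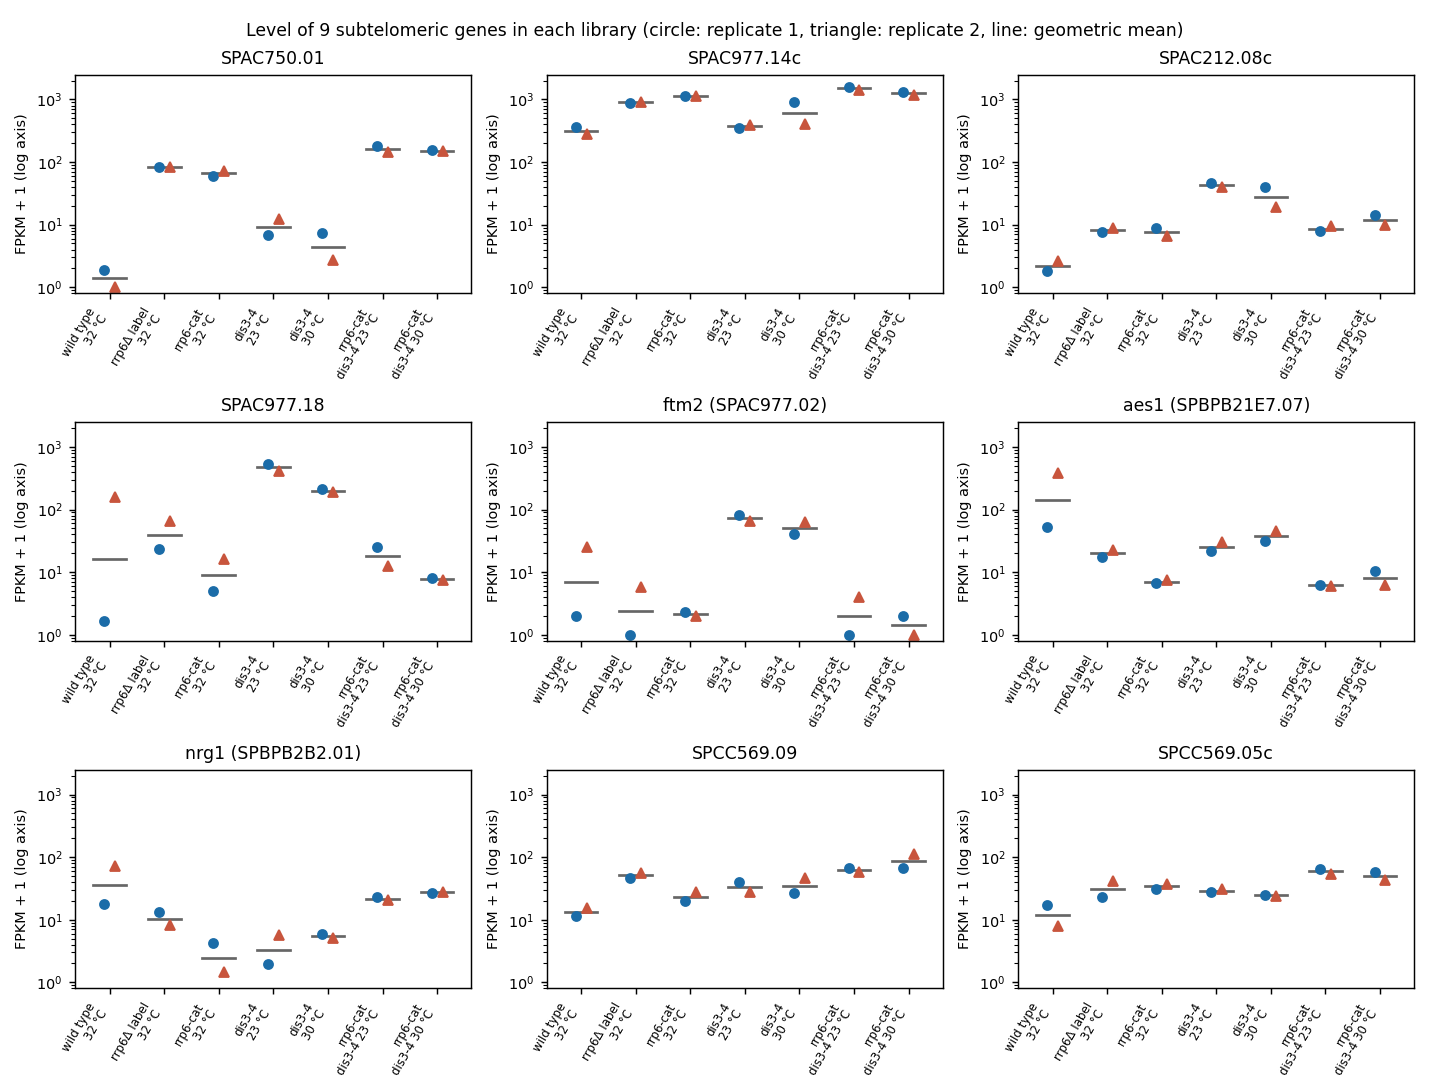
FPKM + 1 on a log axis in each library of 9 subtelomeric genes, for the 7 groups (circle replicate 1, triangle replicate 2, line geometric mean of both). SPAC750.01 and SPAC977.14c are high in the groups with an altered rrp6 label, SPAC212.08c, SPAC977.18 and ftm2 are highest in dis3-4, and aes1 is highest in wild type.

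Of the other 5 called enzymes, 3 were lower than wild type in at least 1 mutant group. The gene aes1 (SPBPB21E7.07), annotated as a phenazine biosynthesis family protein, was at 50.8 and 390 FPKM in wild type, which differ widely. The rrp6Δ label had 16.7 and 21.7 FPKM and rrp6-cat had 5.63 and 6.59. It was at 20.6 and 29.4 FPKM in dis3-4 at 23 °C and at 30.9 and 43.7 at 30 °C. The double mutant held 5.27 and 5.00 FPKM at 23 °C and 9.55 and 5.28 at 30 °C. Every mutant library lay below both wild type libraries, and the groups carrying rrp6-cat were lowest. Against wild type the log2 change was -2.83 for the rrp6Δ label (adjusted p = 0.0203 in limma), -4.33 for rrp6-cat (SE 0.69, adjusted p = 0.0033), -4.54 for the double mutant at 23 °C (adjusted p = 0.00162) and -4.13 at 30 °C (adjusted p = 0.00256). The size rests on the wild type libraries: with 1 library left out, the change for rrp6-cat ran from -5.78 to -2.87, that for the double mutant from -5.99 to -3.08 at 23 °C and from -5.59 to -2.67 at 30 °C, and all kept their call. The call for the rrp6Δ label, over -4.29 to -1.37, ended without wild type replicate 2 or either of its own replicates, and with no filter (adjusted p = 0.0564 in limma).

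SPBPB21E7.09, an L-asparaginase that releases ammonia from asparagine, is a near neighbour of aes1. It was at 8.97 and 28.3 FPKM in wild type and at 3.08 and 2.76 in the libraries labelled rrp6Δ, which lay below. The log2 change there was -2.13 (adjusted p = 0.0273 in limma), and it ended without wild type replicate 2 or either replicate of the rrp6Δ label, over -2.90 to -1.35. The rrp6-cat libraries, at 4.08 and 2.43 FPKM, also lay below wild type and were not called (log2 change -2.03, adjusted p = 0.0554 in limma). A near copy of SPBPB21E7.09, SPAC186.03, 96.3% identical over 1238 bases, was listed at 0 in all but 2 libraries. SPAC977.12, another L-asparaginase, lay between 35.2 and 109 FPKM in all 14 libraries and was not called in any comparison.

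The gene ade5 (SPCC569.08c), whose enzyme acts in purine synthesis, was at 95.6 and 79.3 FPKM in wild type. It was at 51.6 and 37.9 FPKM under the rrp6Δ label, at 57.0 and 38.4 in dis3-4 at 30 °C and at 98.1 and 109 in the double mutant at 30 °C. The first of these groups and dis3-4 lay below wild type and the double mutant lay above dis3-4. The log2 change against wild type was -0.96 for the rrp6Δ label (adjusted p = 0.0261 in limma) and -0.88 for dis3-4 at 30 °C (adjusted p = 0.0494), and the double mutant exceeded dis3-4 by 1.12 (adjusted p = 0.0453). Each of these 3 calls was lost with 1 library left out: the first without wild type replicate 1 or replicate 2 of the rrp6Δ label (over -1.18 to -0.74), the second without wild type replicate 1 or dis3-4 replicate 2 (over -1.16 to -0.60), and the third without dis3-4 replicate 2 or either double mutant replicate (over 0.85 to 1.40).

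A pair of enzyme genes were called against groups listed at 0, where no fold can be given. The pyruvate decarboxylase gene pdc102 (SPAC186.09), whose enzyme makes acetaldehyde from pyruvate, was listed at 0 in wild type and held 5.83 and 5.20 FPKM in the double mutant at 30 °C (adjusted p = 0.0362 in limma). The phosphoprotein phosphatase gene SPBPB2B2.06c was listed at 0 in both dis3-4 libraries at 30 °C and held 8.24 and 17.4 FPKM in the double mutant at 30 °C (adjusted p = 0.0463 in limma). In wild type SPBPB2B2.06c was at 10.9 and 0.890 FPKM, so wild type overlapped the double mutant. Both calls were lost with any 1 of their libraries left out. The call for pdc102 was lost with a pseudocount of 0.1 FPKM (adjusted p = 0.0621) and under quantile normalization (adjusted p = 0.0922 in limma), and that for SPBPB2B2.06c with no filter (adjusted p = 0.0722).

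Enzymes of other subtelomeric pathways were present but not called. The galactose pathway genes gal7, gal10 and gal1 lie together on SPBPB2B2 and encode the uridylyltransferase, the epimerase and the galactokinase. Over the 14 libraries gal7 ran from 14.8 to 34.2 FPKM, gal10 from 4.66 to 22.9 and gal1 from 2.12 to 12.6, and none was called in any comparison. On the same cosmid pan5, annotated as a 2-dehydropantoate 2-reductase, ran from 54.6 to 122 FPKM and was not called either. For cmt2 (SPBPB21E7.04c), a catechol O-methyltransferase, the libraries labelled rrp6Δ held 35.9 and 44.2 FPKM and lay above wild type, at 4.63 and 15.5, and above rrp6-cat, at 3.44 and 10.9. Neither difference was called, at log2 changes of 2.09 (adjusted p = 0.0783 in limma) and 2.49 (adjusted p = 0.126).

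Transporters and channels were 14 of the 113 genes, 8 of them tested and 3 called. The amino acid permease gene nrg1 (SPBPB2B2.01) was at 16.6 and 70.6 FPKM in wild type, at 3.18 and 0.436 in rrp6-cat, at 0.947 and 4.61 in dis3-4 at 23 °C and at 4.84 and 4.14 at 30 °C. In the double mutant it was at 21.6 and 19.5 FPKM at 23 °C and at 25.9 and 26.8 at 30 °C. Both rrp6-cat and dis3-4 thus lay below wild type, whereas the double mutant lay within the wild type range and above both. The libraries labelled rrp6Δ, at 12.2 and 7.19 FPKM, also lay below wild type and were not called (log2 change -1.77, adjusted p = 0.135 in limma). Against wild type the log2 change was -3.86 in rrp6-cat (SE 0.71, adjusted p = 0.00737 in limma), -3.42 in dis3-4 at 23 °C (adjusted p = 0.0155) and -2.70 at 30 °C (adjusted p = 0.0366). The rise of the double mutant over dis3-4 was not called at either temperature. Omitting wild type replicate 2 ended all 3 calls against wild type. The rrp6-cat call was also lost without rrp6-cat replicate 2, over -4.87 to -2.85, the dis3-4 call at 23 °C without its replicate 1, over -4.44 to -2.41, and that at 30 °C without either replicate, over -3.71 to -1.68. With no filter both dis3-4 calls were lost (adjusted p = 0.0516 at 23 °C and 0.0823 at 30 °C in limma), and with a pseudocount of 0.1 FPKM the one at 30 °C (adjusted p = 0.0933).

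SPCC569.05c, annotated as a spermidine family transporter, moved the other way. It was at 16.2 and 6.98 FPKM in wild type, at 21.8 and 40.5 in the libraries labelled rrp6Δ and at 30.0 and 36.7 in rrp6-cat. In dis3-4 it was at 26.3 and 30.4 FPKM at 23 °C and at 24.0 and 23.3 at 30 °C. The double mutant held 64.7 and 53.1 FPKM at 23 °C and 56.6 and 41.7 at 30 °C. All mutant libraries lay above wild type, and those of the double mutant lay above the other mutant libraries. The log2 change against wild type was 1.39 for the rrp6Δ label (adjusted p = 0.0351 in limma), 1.55 for rrp6-cat (adjusted p = 0.0383), 2.35 for the double mutant at 23 °C (SE 0.39, adjusted p = 0.00268) and 2.08 at 30 °C (adjusted p = 0.00466). The call at 23 °C held with any 1 library left out and that at 30 °C was lost without its replicate 1, over 1.53 to 2.63. The call for the rrp6Δ label ended without wild type replicate 2 or its own replicate 2, over 0.84 to 1.95, and that for rrp6-cat without wild type replicate 2 or either of its own replicates, with 0.99 as the smallest left-out change. Both were lost with no filter (adjusted p = 0.0614 and 0.0751 in limma) and under quantile normalization (adjusted p = 0.155 and 0.104). SPCC569.05c overlaps an annotated noncoding RNA, SPNCRNA.1297, on its own strand, so reads of the overlap cannot be told apart by strand.

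SPBPB10D8.01, a cysteine transporter gene, was at 8.73 and 18.2 FPKM in wild type and at 1.71 and 3.19 in the libraries labelled rrp6Δ, with no overlap. Its log2 change was -2.02 (adjusted p = 0.0278 in limma), and it ended without wild type replicate 2 or either replicate of the rrp6Δ label, over -2.51 to -1.53. The rrp6-cat libraries were as low, at 1.59 and 4.64 FPKM, with no call. The sodium/proton antiporter gene nhe1 (SPAC977.10) lay between 34.8 and 83.5 FPKM in all libraries and was not called.

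Cell surface glycoproteins and GPI-anchored proteins were 5 genes, 3 tested and 2 called. SPAC212.08c, annotated as a GPI-anchored protein, a type attached to the outer membrane face by a glycolipid, is the fourth gene from the left end of chromosome I. It was at 0.788 and 1.61 FPKM in wild type, at 6.64 and 7.76 in the libraries labelled rrp6Δ and at 7.88 and 5.50 in rrp6-cat. The dis3-4 libraries were at 45.2 and 38.8 FPKM at 23 °C and at 39.3 and 17.9 at 30 °C. The double mutant held 7.03 and 8.35 FPKM at 23 °C and 13.2 and 8.72 at 30 °C. All 12 mutant libraries lay above wild type and the 4 dis3-4 libraries lay above the other mutants. SPAC212.08c and SPAC750.01 were the 2 genes called higher than wild type in all 6 comparisons. The log2 change was 4.31 in dis3-4 at 23 °C (limma, adjusted p = 0.000126, SE 0.43), 3.67 at 30 °C (adjusted p = 0.000265), 1.92 for the rrp6Δ label (adjusted p = 0.0132) and 1.81 for rrp6-cat (adjusted p = 0.0302). It was 2.00 in the double mutant at 23 °C (adjusted p = 0.0119 in limma) and 2.45 at 30 °C (adjusted p = 0.00351).

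The double mutant lay below dis3-4 in SPAC212.08c at 23 °C, by a log2 change of -2.31 (adjusted p = 0.0322 in limma). This call was lost with any 1 of its 4 libraries left out, over -2.42 to -2.20, and with a pseudocount of 0.1 FPKM (adjusted p = 0.0561). Both dis3-4 calls and that of the double mutant at 30 °C against wild type held with any 1 library left out. Those of the rrp6Δ label (over 1.65 to 2.19), of rrp6-cat (over 1.54 to 2.09) and of the double mutant at 23 °C (over 1.73 to 2.28) were each lost without either of the group's own replicates. Under quantile normalization the calls outside dis3-4 were lost, with adjusted p between 0.0595 for the double mutant at 30 °C and 0.321 for rrp6-cat in limma. The transcript is 97.0% identical over 538 bases to the pseudogene SPBCPT2R1.06c, so its copy of origin is uncertain.

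The other called surface gene, pfl9 (SPAC186.01), encodes a DIPSY family glycoprotein. It was at 6.37 and 7.81 FPKM in wild type and at 0.469 and 2.09 in the libraries labelled rrp6Δ, which lay below. Its log2 change was -1.92 (adjusted p = 0.0208 in limma), and it ended without wild type replicate 2 or replicate 1 of the rrp6Δ label, over -2.46 to -1.38. The rrp6-cat libraries, at 2.03 and 0.892 FPKM, also lay below wild type and were not called (log2 change -1.75, adjusted p = 0.0533 in limma).

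The ftm genes encode proteins with transmembrane helices and are repeated between chromosome ends: all of the 5 tested have near copies. For ftm6 (SPBC1348.03) both wild type libraries were listed at 0, dis3-4 held 31.7 and 15.0 FPKM at 23 °C and 11.3 and 23.7 at 30 °C, and the double mutant at 30 °C was listed at 0. This gene was called higher in dis3-4 than in wild type at 23 °C (adjusted p = 0.0097 in limma) and at 30 °C (adjusted p = 0.0111), and lower in the double mutant than in dis3-4 at 30 °C (adjusted p = 0.0357). The first call was lost without dis3-4 replicate 1, the second without dis3-4 replicate 2 and the third with any 1 of its libraries left out. The third was also lost with a pseudocount of 0.1 FPKM (adjusted p = 0.107) and with no filter (adjusted p = 0.0515 in limma).

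Its near copy ftm2 (SPAC977.02), 98.7% identical over 784 bases, was high in the same libraries. It was at 0.974 and 23.9 FPKM in wild type, at 81.3 and 65.1 in dis3-4 at 23 °C, at 40.5 and 62.5 in dis3-4 at 30 °C and at 1.02 and 0 in the double mutant at 30 °C. All 4 dis3-4 libraries lay above wild type and above the double mutant. The log2 change of the double mutant against dis3-4 at 30 °C was -5.17 (SE 1.11, adjusted p = 0.0393 in limma). It was lost with any 1 library left out, over -5.68 to -4.66, with size factors (adjusted p = 0.0518), with a pseudocount of 0.1 FPKM (adjusted p = 0.131) and with no filter (adjusted p = 0.0928). Against wild type dis3-4 was not called, at 3.39 at 23 °C (adjusted p = 0.116), with the wild type libraries far apart. Since ftm2 and ftm6 share most of their sequence, their values are not independent.

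All values of ftm4 (SPAC750.05c) were low. It was at 0.327 and 0 FPKM in wild type, at 1.93 and 5.38 for the rrp6Δ label, at 5.66 and 6.53 in rrp6-cat, and at 4.18 and 5.95 at 23 °C and 3.39 and 9.48 at 30 °C in the double mutant. In dis3-4 it was listed at 0 in 3 libraries and at 1.24 FPKM in the other. The rrp6-cat and double mutant libraries lay above wild type with log2 changes of 2.62 (adjusted p = 0.0465 in limma), 2.38 (adjusted p = 0.0431) and 2.56 (adjusted p = 0.0282). The rrp6Δ label also lay above wild type and was not called (log2 change 1.91, adjusted p = 0.0955 in limma). Each call ended without wild type replicate 2 or either replicate of its own group, over 1.93 to 3.19 across the 3, and under quantile normalization (adjusted p = 0.184, 0.173 and 0.153). The first was also lost with size factors (adjusted p = 0.0514), and the first and the second with a pseudocount of 0.1 FPKM (adjusted p = 0.0703 and 0.0545 in limma). The gene ftm5 (SPBC1348.02), 99.8% identical to ftm4 over 1360 bases, was at 2.92 and 18.8 FPKM in wild type and was not called in any comparison.

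Uncharacterized proteins were 32 of the 113 genes, 15 tested and 4 called. That count takes in gdt1, whose annotation reads GDT1-like protein and not uncharacterized. SPCC569.09, near the right end of chromosome III, was at 10.5 and 14.3 FPKM in wild type, at 45.8 and 55.6 in the libraries labelled rrp6Δ and at 18.9 and 26.7 in rrp6-cat. In dis3-4 it was at 39.2 and 26.6 FPKM at 23 °C and at 25.8 and 45.1 at 30 °C. The double mutant held 66.2 and 56.9 FPKM at 23 °C and 65.5 and 110.1 at 30 °C. Each of the 12 mutant libraries lay above wild type. The log2 change was 1.96 for the rrp6Δ label (SE 0.36, adjusted p = 0.00394 in limma), 1.41 for dis3-4 at 30 °C (adjusted p = 0.032), 2.23 for the double mutant at 23 °C (adjusted p = 0.00232) and 2.70 at 30 °C (adjusted p = 0.000549). All but the dis3-4 call held with any 1 library left out. That call ended without wild type replicate 1 or dis3-4 replicate 2, over 1.02 to 1.80, with no filter (adjusted p = 0.0566 in limma) and under quantile normalization (adjusted p = 0.0947).

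SPCC569.01c, the outermost gene of the same end, was at 18.4 and 17.0 FPKM in wild type and at 6.00 and 6.88 in dis3-4 at 23 °C, which lay below. The double mutant lay above both, at 37.5 and 41.9 FPKM at 23 °C and at 40.6 and 47.7 at 30 °C. Against wild type the log2 change was -1.33 in dis3-4 at 23 °C (adjusted p = 0.0257 in limma), 1.12 in the double mutant at 23 °C (adjusted p = 0.0332) and 1.27 at 30 °C (adjusted p = 0.0164). The double mutant exceeded dis3-4 by 2.45 at 23 °C (SE 0.30, adjusted p = 0.00336 in limma) and by 1.83 at 30 °C (adjusted p = 0.0132). The 23 °C difference from dis3-4 was lost without double mutant replicate 2, over 2.37 to 2.54, and that at 30 °C without dis3-4 replicate 2 or either double mutant replicate, the smallest left-out change being 1.47. The fall in dis3-4 was lost without either of its replicates, over -1.42 to -1.24. The rises over wild type were lost without wild type replicate 2 or either double mutant replicate, over 1.04 to 1.38 across both temperatures, and under quantile normalization (adjusted p = 0.0755 and 0.0505 in limma). SPCC569.01c has a near copy, SPCP20C8.01c, outside the set.

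SPBC1348.07 was at 0.821 and 0 FPKM in wild type, at 21.3 and 3.96 in dis3-4 at 23 °C and at 18.2 and 17.4 at 30 °C. The double mutant held 9.42 and 4.97 FPKM at 23 °C and 9.33 and 9.79 at 30 °C. The libraries labelled rrp6Δ held 4.54 and 7.73 FPKM and those of rrp6-cat 2.81 and 10.6. All 12 mutant libraries lay above wild type, and the rrp6Δ label (log2 change 2.37, adjusted p = 0.0525 in limma) and rrp6-cat (2.30, adjusted p = 0.0946) were not called. Its log2 change was 2.96 (adjusted p = 0.0359 in limma) and 3.80 (adjusted p = 0.00675) in dis3-4, and 2.55 (adjusted p = 0.0407) and 2.97 (adjusted p = 0.0181) in the double mutant, at 23 °C and 30 °C. The dis3-4 call at 23 °C ended without wild type replicate 2 or dis3-4 replicate 1, over 1.88 to 4.05, and that at 30 °C without dis3-4 replicate 2, over 3.37 to 4.23. Both double mutant calls were lost without wild type replicate 2 or either of the group's own replicates, over 2.11 to 3.40. Under quantile normalization 3 of the 4 calls were lost (adjusted p = 0.0563, 0.1 and 0.0506), and with no filter both at 23 °C (adjusted p = 0.078 in dis3-4 and 0.0736 in the double mutant in limma). A near copy, SPBPB2B2.14c, is 99.4% identical over 693 bases.

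The gene gdt1 (SPAC186.05c), annotated as GDT1-like, was at 16.2 and 18.6 FPKM in wild type and at 6.68 and 3.31 in the libraries labelled rrp6Δ, which lay below. In dis3-4 at 30 °C it was at 3.59 and 11.0 FPKM and in the double mutant at 30 °C at 37.5 and 45.7, with no overlap. The log2 change was -1.67 for the rrp6Δ label against wild type (adjusted p = 0.0326 in limma) and 2.51 for the double mutant against dis3-4 (adjusted p = 0.0205). The first ended without wild type replicate 2 or replicate 2 of the rrp6Δ label, over -2.09 to -1.26, and with no filter (adjusted p = 0.0567), and the second without dis3-4 replicate 1 or either double mutant replicate, over 1.81 to 3.21.

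Of the 11 pseudogenes, 3 were tested and 1 was called. SPAC977.13c, the neighbour of SPAC977.14c, was at 7.48 and 2.35 FPKM in wild type. The dis3-4 libraries were at 6.23 and 0 FPKM at 23 °C and at 1.59 and 0 at 30 °C, and in the double mutant at 33.8 and 34.9 at 23 °C and at 37.5 and 47.1 at 30 °C. The 4 double mutant libraries lay above all 10 others, since the libraries labelled rrp6Δ held 6.77 and 7.57 FPKM and rrp6-cat 5.76 and 9.17. The log2 change of the double mutant was 2.73 against wild type at 23 °C (adjusted p = 0.0478 in limma), 3.01 at 30 °C (adjusted p = 0.028) and 4.74 against dis3-4 at 30 °C (SE 0.80, adjusted p = 0.0153). Both calls against wild type were lost without wild type replicate 2 or either double mutant replicate, over 2.06 to 3.68, and that against dis3-4 without dis3-4 replicate 2 or either double mutant replicate, over 4.05 to 5.43. All 3 were lost with a pseudocount of 0.1 FPKM (adjusted p = 0.289, 0.232 and 0.0838). The 2 against wild type were also lost with no filter (adjusted p = 0.0929 and 0.0636 in limma) and under quantile normalization (adjusted p = 0.0898 and 0.0601).

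Some large differences in level were not called, and in these genes the wild type libraries lay far apart. SPAC977.18, uncharacterized, was at 0.639 and 158 FPKM in wild type and at 531 and 420 in dis3-4 at 23 °C, 211 and 188 at 30 °C. The double mutant held 24.4 and 11.6 FPKM at 23 °C and 7.18 and 6.53 at 30 °C. All 4 dis3-4 libraries lay above every other library, yet against wild type the log2 change at 23 °C was 4.87 with an SE of 1.47 (adjusted p = 0.089 in limma), and the double mutant against dis3-4 at 30 °C was at -4.67 (adjusted p = 0.143). SPBPB2B2.18, 96.6% identical to SPAC977.18 over 295 bases, was at 2.06 and 25.3 FPKM in wild type and at 109.6 and 98.0 in dis3-4 at 23 °C, and was not called either (log2 change 3.54, adjusted p = 0.0656 in limma). Genes chosen here for their levels after these were seen, such as both of these, are given as description.

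**Figure D4:**
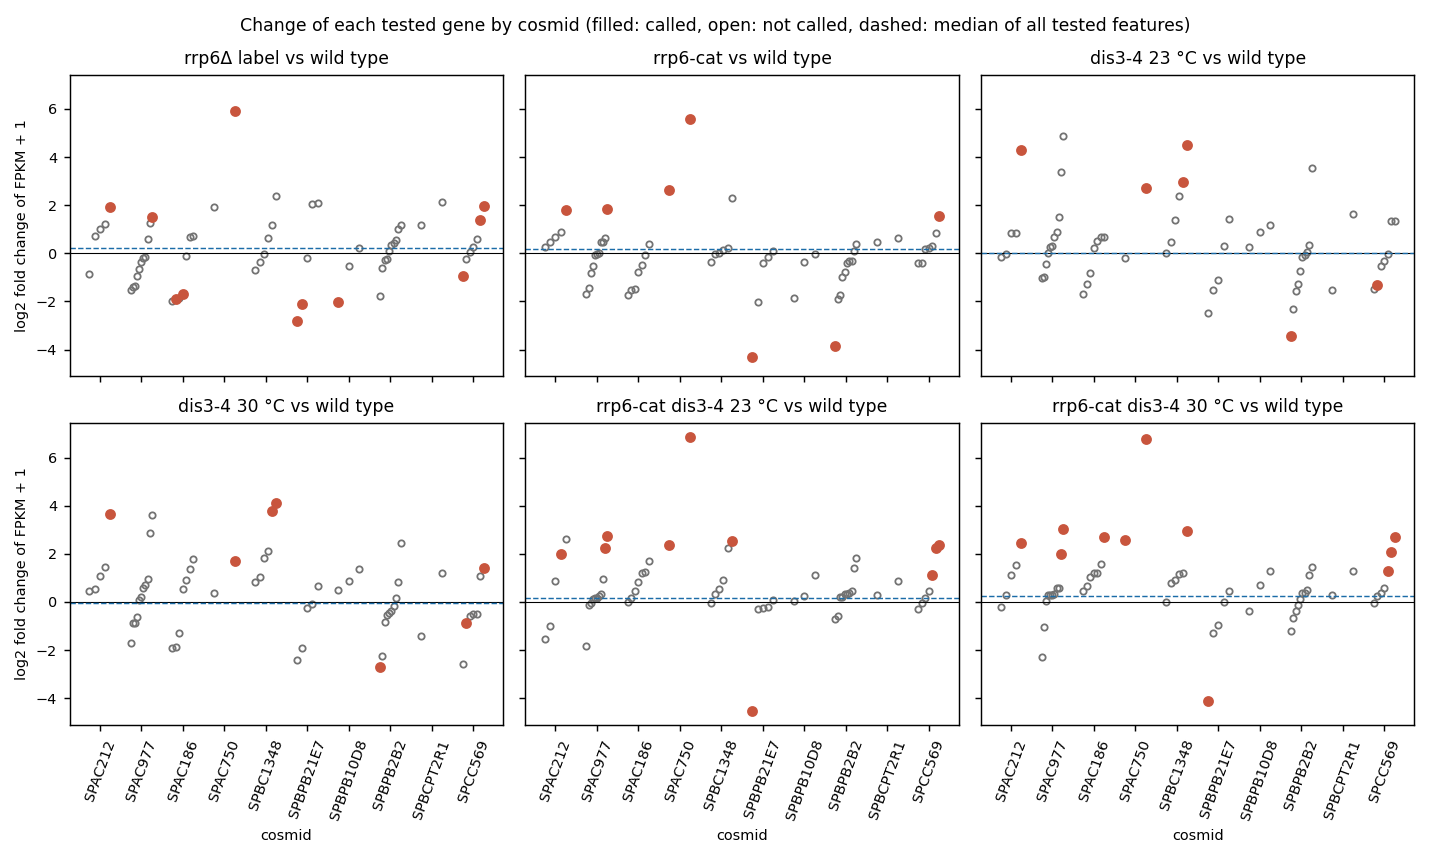
Log2 change of FPKM + 1 against wild type of each of the 58 tested genes (points, filled where called), by cosmid, in the 6 mutant groups. The dashed line is the median of all 6083 tested features, and SPAC750.01 is the highest filled point in the 4 groups with an altered rrp6 label, at 5.59 to 6.86.

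The 58 tested genes moved in both directions. Their median log2 change against wild type was 0.07 for the rrp6Δ label and -0.04 for rrp6-cat, with 0.23 and 0.18 over all tested features. It was 0.24 and 0.49 in dis3-4 at 23 °C and 30 °C, with 0.02 and -0.03 over all, and 0.33 and 0.53 in the double mutant, with 0.16 and 0.24 over all. In the double mutant 44 of the 58 changes lay above 0 at 23 °C, 75.9% against 59% of all tested features, and 45 at 30 °C, 77.6% against 63.8%. The quartiles of the members' changes ran from 0.01 to 1.19 at 23 °C and from 0.07 to 1.25 at 30 °C. Quantile normalization turned the sign of 4 of these medians of the set, to -0.49 for the rrp6Δ label, -0.04 in dis3-4 at 23 °C, -0.10 in the double mutant at 23 °C and -0.004 at 30 °C, and size factors turned that for the rrp6Δ label to -0.10. The median of all features moved as well, for the rrp6Δ label to 0.02 with size factors and to -0.14 with quantile normalization. The split of calls moved with it: under quantile normalization 3 genes were higher and 8 lower for the rrp6Δ label, 2 and 6 for rrp6-cat, 4 and 5 in dis3-4 at 30 °C, and 4 and 1 in the double mutant at 30 °C. It gave 4 higher and 3 lower in the double mutant against dis3-4 at 23 °C, and size factors gave 6 and 1 at 30 °C. With size factors 4 were higher and 3 lower for rrp6-cat. None of the 64 called values changed sign in any setting.

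By cosmid, the counts of calls were small. The filter bears on them: SPAC750.01, ftm4, ftm6, SPBC1348.07 and pdc102 had wild type means of 0.453, 0.164, 0, 0.410 and 0 FPKM. These genes passed the limit of 1 FPKM through mutant libraries. The counts of SPAC750 and SPBC1348, and the rise of pdc102 on SPAC186, therefore cannot be weighed against the shares of all tested features. On SPAC750 both tested genes, SPAC750.01 and ftm4, were higher than wild type in rrp6-cat, where 4.88% of all tested features were, and in the double mutant at both temperatures, where 9.42% and 11.7% were. SPCC569 had 3 of 7 tested genes higher in the double mutant against wild type at both temperatures, SPCC569.01c, SPCC569.05c and SPCC569.09, against the same 9.42% and 11.7%. SPBC1348, at the left end of chromosome II, had 2 of 6 higher in dis3-4 at both temperatures, ftm6 and SPBC1348.07, against 4.39% and 6.38% of all tested features, with medians of 1.89 at 23 °C and 1.98 at 30 °C on the log2 scale. On SPAC186 2 of 7 were lower for the rrp6Δ label, pfl9 and gdt1, against 2.7% of all tested features, with a median of -1.67. On SPBPB21E7 the 2 of 5 called lower for that label were aes1 and SPBPB21E7.09. SPBCPT2R1 had no call in any comparison.

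Some contrasts gave no call among the tested genes, with limma at an adjusted p under 0.05. The libraries labelled rrp6Δ against rrp6-cat had 0 called, against a background of 1.69%, with 1.3% higher and 0.395% lower, and with 8 at an unadjusted p under 0.05. The shift from 23 °C to 30 °C had 0 called in dis3-4, against a background of 0%, with 5 at an unadjusted p under 0.05. It had 0 called in the double mutant, against 0%, with 2 at an unadjusted p under 0.05. The difference between the 2 shifts, added after the values were seen, had 0 called against 0%, with 2 at an unadjusted p under 0.05. With 2 libraries a group these counts do not show that the groups were alike. Under quantile normalization 1 gene was called higher in the libraries labelled rrp6Δ than in rrp6-cat, and with no filter 1 was called higher after the shift in the double mutant.

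Genes of the exosome, of heterochromatin and of telomeres are listed for comparison, with the known exosome targets. Of 21 tested heterochromatin and RNA interference genes, 2 were called higher than wild type for the rrp6Δ label, where 9.81% of all tested features were, 0 in rrp6-cat (4.88%), 0 in dis3-4 at 23 °C (4.39%) and 1 at 30 °C (6.38%), 2 in the double mutant at 23 °C (9.42%) and 4 at 30 °C (11.7%), and none was called lower in any comparison. The same background shares apply to the lists that follow. Among them were clr4, the histone H3 lysine 9 methyltransferase, at a log2 change of 1.90 for the rrp6Δ label (adjusted p = 0.0164 in limma), set2, a histone H3 lysine 36 methyltransferase, at 1.70 in the double mutant at 23 °C (adjusted p = 0.00612), and rdp1, the RNA-directed RNA polymerase, at 1.64 in the double mutant at 30 °C (adjusted p = 0.00977). Of 11 tested telomere and telomerase genes, 0 were called in any comparison. Of 17 exosome and cofactor genes, 3 were higher than wild type for the rrp6Δ label, 1 in rrp6-cat, 1 in dis3-4 at 23 °C, 0 at 30 °C, and 3 and 4 in the double mutant at 23 °C and 30 °C. The 3 for the rrp6Δ label include rrp6 itself, at a log2 change of 1.22 (adjusted p = 0.0482 in limma). The 6 listed target mRNAs of Mmi1, a protein that directs meiotic mRNAs to the exosome, were all higher than wild type for the rrp6Δ label, at a median log2 change of 5.86, with 4 in rrp6-cat, 3 and 5 in dis3-4 and 5 and 5 in the double mutant. Of 7 tested mating and meiotic entry genes, 2 were higher for the rrp6Δ label, 1 in rrp6-cat, 1 and 1 in dis3-4 and 1 and 2 in the double mutant. Against rrp6-cat, the libraries labelled rrp6Δ were higher in 6 of the Mmi1 targets and 1 of the mating genes. The part of these genes in the subtelomeric values was not tested.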

How the data were processed

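PolyA RNA of 14 libraries in 7 groups of 2 was analysed. The authors deposited FPKM per feature and library, with TopHat2 2.1.0, Bowtie2, Cufflinks 2.2.1, Cuffnorm and Cuffdiff and build ASM294v2 named in the submitters' processing notes. The annotation, library scaling, strand use and handling of repeated reads are unstated in the sources used here, and no interval from counts could be made.

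FPKM were used as deposited. Of 7027 features, the 6083 with a mean of at least 1 FPKM entered 1 fit of 7 group means of log2(FPKM + 1) in limma 3.58.1 (R 4.3.3, trended moderation, two-sided), with Benjamini-Hochberg adjustment over the 6083. The log2 scale with a pseudocount of 1 FPKM understates changes of low genes. The fit was tested on simulated data. Alternatives were a pseudocount of 0.1 FPKM, no filter, size factors, quantile normalization, the replicate block, the compared groups alone and leaving out each library. Copies were found with blastn 2.17.0 on reference transcripts. The reference is of another build, so it served for names, gene order, overlaps and similarity, and no sequence or coordinate is printed.

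The members, the lists (heterochromatin and RNA interference, telomere, exosome, Mmi1 targets, mating entry) and the rules were chosen with earlier results of these data known. Named genes were tlh1 and tlh2, up to 8 rises and 6 falls per comparison among called genes that reached 5 FPKM without overlap, and called genes with a symbol. All 20 called genes are named, and the uncalled ones were chosen after their values were seen.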

Additional observations from a re-analysis of the deposited data

How the results depend on the processing

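Of 64 called values of single genes, 35 stayed called under each alternative other than the compared groups alone, counted without leaving out libraries, and none changed direction in any. Replicate numbers showed no general pairing of the libraries: over 21 pairs of groups the correlation of same-numbered deviations had a median of 0.03. The highest was 0.315 and 5 exceeded 0.1, so pairing between some groups was not settled. With the replicate number as a block, all 64 kept their call, and the counts of genes called became 8 in dis3-4 at 23 °C against wild type, and 9 and 6 in the double mutant against dis3-4 at 30 °C and 23 °C, with the others unmoved. Replicate number went with depth: replicate 2 was the shallower library in every group but the double mutant at 30 °C. Depth limits the low genes, and the shallowest library, wild type replicate 2, enters 6 comparisons.

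With the spread from the compared groups alone, the calls among the 58 genes against wild type came to 1 for the rrp6Δ label, 0 in rrp6-cat, 0 and 0 in dis3-4, 2 in the double mutant at 23 °C and 1 at 30 °C, and against dis3-4 to 1 at 30 °C and 1 at 23 °C. A fit of 4 libraries has fewer residual degrees of freedom. A pseudocount of 0.1 FPKM gave 5 calls in the double mutant against dis3-4 at 30 °C and 2 at 23 °C. With no filter the shift in the double mutant had 1 call and the difference between the shifts 1. Quantile normalization gave 5 and 5 in the double mutant against wild type, 1 for the rrp6Δ label against rrp6-cat and 7 in the double mutant against dis3-4 at 23 °C. The cause of these shifts was not tested.

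Leaving out each library in turn gave 3 to 18 calls for the rrp6Δ label against wild type, 4 to 17 in rrp6-cat, 2 to 11 in dis3-4 at 23 °C, 4 to 10 at 30 °C, 5 to 17 in the double mutant at 23 °C and 5 to 19 at 30 °C. Against dis3-4 the double mutant had 1 to 8 calls at 30 °C and 1 to 3 at 23 °C. The highest counts against wild type came without wild type replicate 1 (18, 17, 11, 10, 17 and 19 in that order). With replicate 2 of wild type omitted, dis3-4 at 30 °C again had 10, the rrp6Δ label had 7 and the double mutant at 30 °C 6. The lowest came without replicate 2 of the rrp6Δ label, either rrp6-cat replicate, dis3-4 replicate 1 at 23 °C, dis3-4 replicate 2 at 30 °C, either double mutant replicate at 23 °C and double mutant replicate 1 at 30 °C, and against dis3-4 without either double mutant replicate at 30 °C and its replicate 2 at 23 °C. A lone library was assumed to vary like the other groups.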
